A study of Homo sapiens with 9 samples.

Results

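The regions described here are the stretches of accessible chromatin listed for SK-N-MC cells in which CHD4 was targeted by the hairpin shCHD4#2, set against those listed for the same line with the non-targeting hairpin shScramble. SK-N-MC is an established Ewing sarcoma cell line. Both groups carried a doxycycline-inducible hairpin and received 100 ng/ml doxycycline for 48 h, and the labels give their genotypes as CHD4 knockdown and wildtype. Each group had 3 biological replicates, 6 of the 9 samples of the series, and every sample held 100000 SK-N-MC cells and 100 Drosophila S2 cells added as a spike-in. Members were all regions of chromosomes 1 to 22 and X except those wider than 20 kb or with a negative value in the authors' second score. This left 82824 regions with shCHD4#2 and 85359 with shScramble, 168183 of the 290639 regions of the series that pass the same filter. The filter dropped 417 and 416 regions. The widest regions kept were 19540 bp and 19810 bp, and the narrowest dropped for width was 20200 bp in both lists.

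The data hold 1 region list per group, filed under replicate 1. The list was taken to combine the replicates of its group, an inference from its name. There was thus no spread between replicates, no difference between the groups could be tested, and read depth is unknown. Whether shCHD4#2 lowered CHD4 cannot be read from region lists. Intervals given with shares are 95% Wilson intervals and those of medians are order-statistic intervals. Both cover counting error only. The authors' p orders each list, and rows are counted from the best. Near the end of each list rows run in genome order, so row does not rank regions there. The authors' names mark 63329 of the kept shCHD4#2 regions and 65982 of the kept shScramble regions as secondary. This label was not used to filter or class regions. The authors' p was at most 0.05 for 10943 shCHD4#2 regions and 10778 shScramble regions.

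CHD4 is the main ATPase of the NuRD complex, which moves nucleosomes and carries histone deacetylase subunits, so that remodelling and removal of acetyl marks act at the same place. NuRD binds enhancers and CpG-rich promoters and is known for limiting the activity of genes of other lineages. ATAC-seq marks DNA that the Tn5 transposase can reach, which is mostly nucleosome-poor promoters and enhancers. In Ewing sarcoma the EWSR1::FLI1 fusion, an ETS-type factor, drives the tumour programme and opens chromatin at repeats of the letters GGAA.

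A gained region is a shCHD4#2 region that shares no base with any shScramble region. A lost region is a shScramble region that shares none with shCHD4#2. Gained regions lay at gene starts more often than lost ones, and the DNA just before a few such starts is printed first because base composition differed between these classes. Each line holds the 250 bases before the listed start, 5′ to 3′ on the gene's strand, from RefSeq for GRCh38.p14, with CG dinucleotides in capitals. A start counts as covered when a region shares at least 1 bp with the window from 250 bases before to 50 after it. The NEUROG2 region began at 112516261, upstream of the start at 112516180, and did not reach it. A CBX6 region in the window, from 38872301 to 38872880, likewise lay upstream of the start at 38872216. The first 6 starts were covered in this sense with shCHD4#2 and not with shScramble. They are ZBTB22, a zinc finger gene next to DAXX (chr6:33317943-33318192, minus strand); TAF1, the scaffold of the general factor TFIID (chrX:71366107-71366356, plus strand); and GATA6, an endoderm and heart factor (chr18:22169339-22169588, plus strand). NEUROG2, a proneural factor (chr4:112516181-112516430, minus strand), FOXC1, a mesoderm forkhead factor (chr6:1609665-1609914, plus strand), and CBX6, a Polycomb chromobox protein (chr22:38872217-38872466, minus strand), follow. By the same rule the last 3 were covered with shScramble and not with shCHD4#2. They are CEP57L1 (chr6:109094913-109095162, plus strand), which faces the p53 target SESN1; MEAK7 (chr16:84504660-84504909, minus strand), an mTOR-linked gene; and CCNA2, which encodes cyclin A2 (chr4:121823884-121824133, minus strand).
ZBTB22: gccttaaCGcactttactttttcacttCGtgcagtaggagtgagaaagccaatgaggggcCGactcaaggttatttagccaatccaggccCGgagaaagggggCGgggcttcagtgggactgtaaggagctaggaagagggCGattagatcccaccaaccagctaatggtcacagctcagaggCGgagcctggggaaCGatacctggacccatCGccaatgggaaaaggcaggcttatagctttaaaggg
TAF1: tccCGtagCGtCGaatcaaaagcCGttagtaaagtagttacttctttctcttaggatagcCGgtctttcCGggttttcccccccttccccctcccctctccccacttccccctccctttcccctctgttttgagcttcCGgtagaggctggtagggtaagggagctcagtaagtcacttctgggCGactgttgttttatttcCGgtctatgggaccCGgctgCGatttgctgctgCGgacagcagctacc
GATA6: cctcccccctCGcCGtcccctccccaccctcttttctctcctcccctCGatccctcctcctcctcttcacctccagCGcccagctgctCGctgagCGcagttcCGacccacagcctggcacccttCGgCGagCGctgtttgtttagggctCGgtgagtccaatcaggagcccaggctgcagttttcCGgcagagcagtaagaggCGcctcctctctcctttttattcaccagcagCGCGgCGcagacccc
NEUROG2: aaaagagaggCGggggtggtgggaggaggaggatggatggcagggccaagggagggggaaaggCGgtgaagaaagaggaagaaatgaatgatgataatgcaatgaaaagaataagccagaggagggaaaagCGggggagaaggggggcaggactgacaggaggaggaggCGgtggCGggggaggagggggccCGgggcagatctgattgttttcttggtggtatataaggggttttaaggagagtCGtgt
FOXC1: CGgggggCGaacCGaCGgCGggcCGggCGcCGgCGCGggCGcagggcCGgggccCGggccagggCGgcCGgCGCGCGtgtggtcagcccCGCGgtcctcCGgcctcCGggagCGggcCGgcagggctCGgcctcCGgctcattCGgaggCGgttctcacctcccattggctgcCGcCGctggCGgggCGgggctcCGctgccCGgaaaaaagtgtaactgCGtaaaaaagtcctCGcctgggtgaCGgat
CBX6: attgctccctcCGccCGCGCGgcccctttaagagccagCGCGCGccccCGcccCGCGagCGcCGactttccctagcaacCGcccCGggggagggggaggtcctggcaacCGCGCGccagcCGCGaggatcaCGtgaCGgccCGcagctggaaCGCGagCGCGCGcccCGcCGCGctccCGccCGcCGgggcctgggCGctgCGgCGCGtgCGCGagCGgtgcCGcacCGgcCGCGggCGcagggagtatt
CEP57L1: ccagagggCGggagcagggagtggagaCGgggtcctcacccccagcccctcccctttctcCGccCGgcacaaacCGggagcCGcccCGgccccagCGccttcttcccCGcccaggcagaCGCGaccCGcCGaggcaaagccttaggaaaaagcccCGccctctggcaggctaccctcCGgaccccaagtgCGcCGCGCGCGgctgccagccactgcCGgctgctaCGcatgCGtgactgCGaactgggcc
MEAK7: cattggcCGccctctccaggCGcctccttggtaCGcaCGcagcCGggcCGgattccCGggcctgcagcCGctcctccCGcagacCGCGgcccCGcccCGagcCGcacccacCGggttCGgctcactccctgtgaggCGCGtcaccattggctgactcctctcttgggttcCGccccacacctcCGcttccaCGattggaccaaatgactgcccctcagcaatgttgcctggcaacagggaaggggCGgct
CCNA2: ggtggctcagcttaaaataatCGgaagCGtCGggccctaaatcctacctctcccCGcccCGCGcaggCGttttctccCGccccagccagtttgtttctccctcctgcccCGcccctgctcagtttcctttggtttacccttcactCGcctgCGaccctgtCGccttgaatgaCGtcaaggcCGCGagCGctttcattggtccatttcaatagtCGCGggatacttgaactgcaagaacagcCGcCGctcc

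The 9 sequences differ widely in CG content. CBX6 holds 45 CG dinucleotides in its 250 bases, FOXC1 37 and GATA6 16, while ZBTB22 holds 9 and NEUROG2 7. CEP57L1 holds 24, MEAK7 22 and CCNA2 20. The examples therefore do not stand for their classes, whose composition is given with the gene starts further on.

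Of the 85359 shScramble regions, 54760 (64.2%) shared at least 1 bp with a shCHD4#2 region. The remaining 30599 (35.8%, interval 35.5 to 36.2%) were lost. Of the 82824 shCHD4#2 regions, 57445 (69.4%) overlapped a shScramble region. The remaining 25379 (30.6%, interval 30.3 to 31.0%) were gained. Loss was the more frequent outcome only in the full lists. In the first 20000 rows of each list 39.1% were lost and 39.3% gained, and at an authors' p of at most 0.05 in both lists 38.4% were lost and 39.5% gained. The lists shared 60.6 Mb, which is 43.0% of the bases covered with shScramble and 58.9% of those covered with shCHD4#2. A share of 41.9% of the shScramble regions (35763) met exactly 1 shCHD4#2 region that met no other, and these are called one-to-one. A further 8989 shScramble regions overlapped several shCHD4#2 regions, and 6622 shCHD4#2 regions overlapped several shScramble regions.

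Losses and gains sat low in the lists. Of the best 999 analysed shScramble regions 3 (0.300%) were lost. The share was 2.20% in rows 1001 to 5000, 9.61% in rows 5001 to 20000 and 28.8% in rows 20001 to 40000. It then reached 52.5% in rows 40001 to 60000 and 50.4% beyond. Gains went the same way, from 0.8% of the best 1000 shCHD4#2 regions and 2.70% of the next class to 13.2%, 27.3%, 40.0% and 43.0% in the classes after it. The median row was 55664 for lost and 53402 for gained regions. Only 451 lost and 672 gained regions had an authors' p of at most 0.05. They make up 4.18% and 6.14% of the regions at that p, so among well-ranked regions fully gained places outnumbered fully lost ones.

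**Figure D1:**
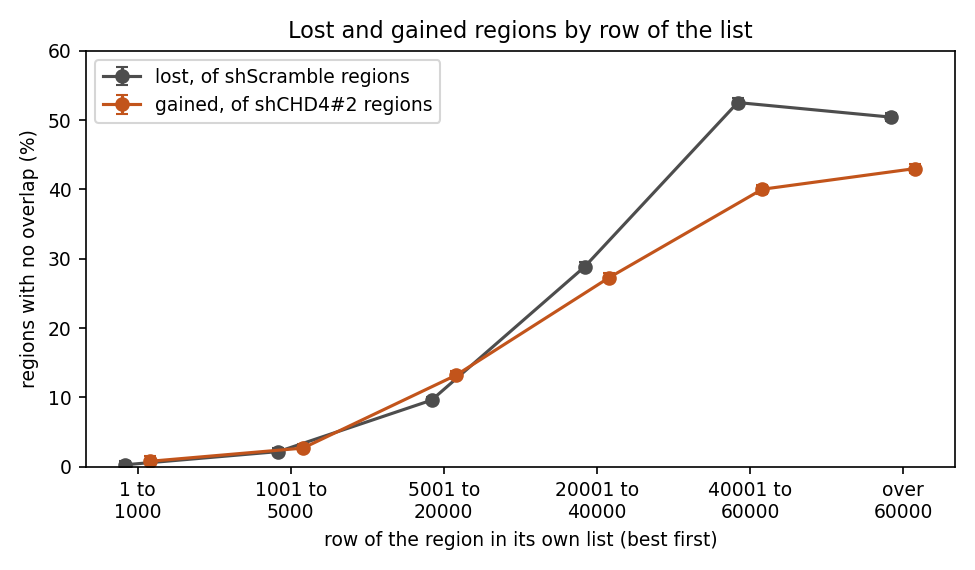
Share of regions without any overlap in the other list (%, y axis) by the row of the region in its own list (x axis, best rows first), grey for shScramble regions lost and orange for shCHD4#2 regions gained. Bars are 95% Wilson intervals; both shares start under 1% in the best 1000 rows, and loss reaches 52.5% where gain is 40.0%.

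Many of the regions without overlap lay close to one in the other list. The nearest shCHD4#2 region was at a median of 4880 bp from a lost region, and 31.6% of lost regions had one within 1 kb. For gained regions the median was 3730 bp and the share within 1 kb 32.8%. At the other extreme, 38.0% of lost and 32.3% of gained regions had no region of the other list within 10 kb. Lost regions were wide, with a median of 1380 bp, near the 1490 bp of kept shScramble regions. Gained regions were narrow, 900 bp against 1110 bp for kept shCHD4#2 regions.

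Gained and lost regions differed in where they lay relative to gene ends. Within 1 kb of either end of a protein-coding gene lay 18.4% of the gained regions (interval 17.96 to 18.92%) and 9.12% of the lost ones (8.81 to 9.45%). The kept regions stood above both, at 26.5% in the shScramble list and 24.2% in the shCHD4#2 list. Counting only listed gene starts, the share was 12.2% of gained, 4.60% of lost, 19.4% of kept shScramble and 17.7% of kept shCHD4#2 regions. Gene bodies away from the ends held 39.7% of gained and 44.6% of lost regions. Outside genes lay 40.9% of gained and 45.8% of lost regions. The gap was wider in the first 20000 rows, with 35.6% of gained and 14.3% of lost regions at a gene end. The whole lists there held 36.3% with shCHD4#2 and 28.3% with shScramble. The gained share was thus near that of its own list. The 672 gained and 451 lost regions that reached the authors' p of 0.05 and had no overlap at any p differed less. Their shares were 33.0% (29.6 to 36.7%) and 25.7% (21.9 to 29.9%), and these intervals touch. Both lay below the shares of all regions at that p, 44.9% with shCHD4#2 and 35.1% with shScramble.

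Loss grew with distance from the nearest gene end, whether inside or outside a gene, while the gained share stayed level beyond the ends themselves. Of shScramble regions lying over a gene end 12.01% were lost. The share was 20.5% up to 1 kb away, 36.1% at 1 to 10 kb and 40.4% at 10 to 50 kb. It was 42.8% at 50 to 100 kb, 46.4% at 100 kb to 1 Mb and 52.1% beyond 1 Mb, where only 463 regions lie. Of shCHD4#2 regions over a gene end 17.2% were gained. From 1 bp to 1 kb away 34.4% were gained, and in every class beyond the share was between 31.6 and 33.6%. At gene ends the rank of the regions also differed, so the classes were split by row. In rows 20001 to 40000, 14.5% of shScramble regions at a listed start were lost and 31.9% of those outside genes. In rows 60001 and beyond these shares were 12.6% and 60.6%, but the last of those rows run in genome order, so rank is not held there. In rows 5001 to 20000 the shares were 8.48% and 9.60%, with overlapping intervals. Gains had no single order by position. In rows 20001 to 40000 30.0% were gained at listed starts and 26.3% outside genes, in rows 40001 to 60000 44.9% and 39.3%, and beyond row 60000 34.1% and 45.5%.

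The shCHD4#2 list consisted of narrower regions. Its median width was 1040 bp, against 1440 bp with shScramble, and it covered 103 Mb against 141 Mb. At the one-to-one regions the median was 1110 bp against 1500 bp, and the median of the ratio was 0.756 (interval 0.752 to 0.760). The shCHD4#2 region was the narrower one at 73.4% of these places. At 6545 of them (18.3%) it was at most 0.5 times as wide, which is called narrowed here. At 1059 (2.96%) it was at least 2 times as wide. In 45.4% of the pairs the shCHD4#2 region lay wholly inside the shScramble region and in 11.7% the reverse held. In 42.9% 1 edge had receded while the other had moved out, and 32 pairs had identical edges.

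Width depended on position. The median ratio was 0.711 (0.704 to 0.718) outside genes and 0.732 (0.725 to 0.740) in gene bodies. It was 0.859 at gene ends other than listed starts and 0.907 (0.895 to 0.922) at listed starts. The contrast was there in the first 20000 rows too, with 0.728 outside genes and 0.992 (0.976 to 1.008) at listed starts. There 50.5% of the start regions were the narrower ones with shCHD4#2, against 82.1% outside genes. Split into 5 classes of the mean width of the pair, the ratio at listed starts lay between 0.870 and 0.976 and outside genes between 0.673 and 0.780, so starts had the higher ratio in each class. At starts the ratio was 0.976 in the narrowest class and 0.870 in the widest. Outside genes the order was the other way, 0.695 and 0.780.

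**Figure D2:**
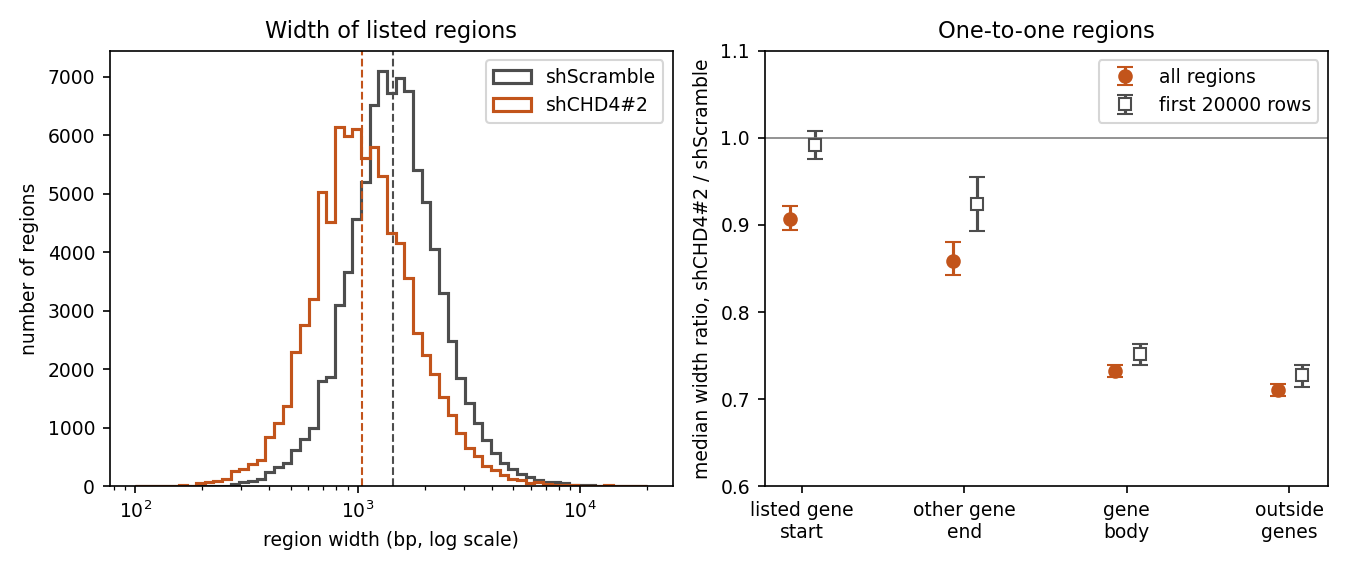
Left, number of regions (y axis) by width (bp, log scale) in both lists, with dashed lines at the medians of 1440 bp (shScramble, grey) and 1040 bp (shCHD4#2, orange). Right, median width ratio of one-to-one regions by position with its 95% interval, for all regions (circles) and the first 20000 rows (squares); the ratio is 0.711 outside genes and 0.907 at listed starts, on a y axis that does not begin at 0.

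At gene starts the 2 edges of a region behaved unequally. The 2736 one-to-one regions whose shScramble member held a single listed start were oriented by the strand of the gene. The shCHD4#2 member was not required to hold that start. Their upstream edge lay at a median of 980 bp from the start with shScramble and 808.5 bp with shCHD4#2. Per region, that edge had receded by a median of 110 bp (interval 100 to 130 bp), and it had receded in 64.1% of the regions. The downstream edge had shifted by a median of -10 bp (-10 to 0 bp), where a negative value means outward, and it had receded in 45.2%. Its median distance from the start was 446 bp with shScramble and 548 bp with shCHD4#2. In the first 20000 rows these distances were 395.5 bp and 714.5 bp. The median shifts of the upstream and downstream edges were 120 bp and -40 bp in the first 20000 rows. At an authors' p of at most 0.05 they were 120 bp and -30 bp.

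Coverage around all 15811 listed starts had a taller and narrower shape with shCHD4#2. At the start itself 51.4% of genes were covered with shCHD4#2 and 42.6% with shScramble. At 150 bp upstream the values were 52.6% and 45.3%. The lines crossed at about 650 bp upstream, where 43.8% and 43.7% were covered, and at about 1150 bp downstream, with 32.0% and 32.1%. At 3000 bp upstream 9.38% were covered with shCHD4#2 and 12.9% with shScramble, and at 3000 bp downstream 9.95% and 13.1%. Both lists had a step just after the start. At 300 bp downstream coverage was 42.4% with shCHD4#2 and 36.1% with shScramble.

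**Figure D3:**
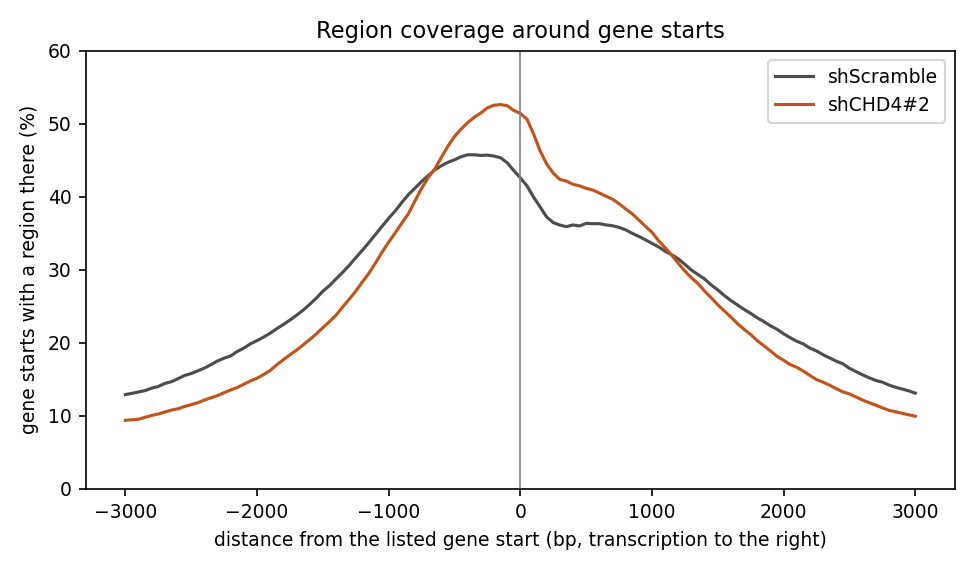
Share of the 15811 listed gene starts that have a region at each distance (%, y axis) against distance from the start (bp, x axis, transcription to the right), grey for shScramble and orange for shCHD4#2. The orange line is higher at the start (51.4% against 42.6%) and lower at 3000 bp upstream (9.38% against 12.9%).

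These gene starts were sorted by the 300 bases around them, 250 before and 50 after. In 6868 genes at least 1 bp of this window was covered in both lists and in 6066 in neither. It was covered with shCHD4#2 alone in 1992 genes (12.6% of the starts, the background for the counts by gene list further on). With shScramble alone it was covered in 885 (5.6%). The listed start is the outer boundary of the gene in 13256 of the 15811, and among those the shares were 12.5% and 5.50%. The first 20000 rows gave 2124 and 593. A start covered in one list only often had a region of the other list beside it. Of the 1992 starts gained, 55.2% had a shScramble region within 1 kb, 13.8% had one on both sides within 1 kb, and 34.0% were covered by a shCHD4#2 region that itself overlapped a shScramble region. Only 18.9% had no shScramble region within 10 kb. Of the 885 starts lost, 69.6% had a shCHD4#2 region within 1 kb and 12.1% had none within 10 kb.

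Starts gained were the richest in G and C. Their windows had a median GC content of 70% and 31 CG dinucleotides. Windows covered in both lists had 64% and 25, windows lost 65% and 24, and windows covered in neither 56.3% and 8. When all starts were placed in 5 equal classes of GC content, the number gained per start lost was 0.84 in the poorest class and 1.60, 1.82, 2.64 and 3.62 in the classes above it. In the richest class, from 72 to 94% GC, 43.9% of starts were covered with shScramble and 62.6% with shCHD4#2. In the poorest class the values were 22.4% and 21.6%. Starts gained in the first 20000 rows again had the higher median, 67% against 62.3% for starts in both. Among the printed sequences, FOXC1 (76.8% GC) and CBX6 (79.2%) lie above the median of the starts gained, and ZBTB22 (54%), TAF1 (54.8%), NEUROG2 (56%) and GATA6 (64.4%) lie below it.

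Short letter motifs followed a partly different order. Each was searched on both strands of the 300 bases, and a match is a description of letters, not of binding. GGGCGG, the box of SP1 and KLF factors, stood in 75.9% of starts gained, 70.2% of those in both, 62.1% of those lost and 58.5% of all 15811. CCAAT, bound by NF-Y, stood in 29.9% of starts gained, 31.9% of those lost and 41.9% of those in both, with 36.3% over all. CGGAAG, an ETS-type site, stood in 25.1% of starts gained, 25.2% of those lost and 37.1% of those in both, with 25.6% over all. In the first 20000 rows CCAAT stood in 38.3% of starts gained and 39.0% of those lost, and CGGAAG in 34.1% and 32.4%. These shares were above those over all, and starts in both again stood highest, at 49.8% and 43.2%. TATAAA was found in 4.52% of starts gained, 8.70% of those lost and 9.64% of all. GGAAGGAA, a short form of the repeat that the fusion binds, differed little, with 3.06% of starts gained, 3.50% of those lost and 3.55% of all. AP-1 letters (TGACTCA) were in 2.86% of starts gained, 4.07% of those lost and 3.67% of all, but in the first 20000 rows in 3.11% of starts gained and 2.53% of those lost. The E-box letters CACGTG were in 10.8%, 8.47% and 8.87%, and in the first 20000 rows in 10.6% of starts gained and 10.5% of those lost.

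Spacing between neighbouring regions was close to equal in the lists. The median gap was 8710 bp with shCHD4#2 and 9440 bp with shScramble, and 8.10% and 7.75% of neighbours touched. Gaps under 1 kb made up 27.6% and 26.5%, and gaps over 100 kb 7.73% and 7.09%. The shCHD4#2 list thus had slightly more of both the shortest and the longest gaps.

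Chromosomes differed in the balance of the lists. Chromosome 13 had 2244 regions with shScramble and 1858 with shCHD4#2, a ratio of 0.828, and 44.6% of its shScramble regions were lost. Chromosome 18 was close in loss, at 44.5%. Chromosome 19, the most gene-dense, had 3486 and 3955 regions, a ratio of 1.13, with 24.96% lost. Chromosomes 16 (1.12), 20 (1.09), 22 (1.07), 17 (1.04) and 11 (1.02) were the others above 1. Over the 23 chromosomes the ratio and the number of protein-coding genes per Mb had a Pearson r of 0.75 and a Spearman rho of 0.82, as a description of points that share the same 2 lists. For the share lost these were -0.84 and -0.89, and for the share gained 0.23 and 0.23. The ratio kept an r of 0.78 when all regions at gene ends were left out, and 0.80 in the first 20000 rows. Smaller stretches gave the same order. In bins of 5 Mb sorted by gene number into 5 equal classes, the ratio of region numbers was 0.854 in the class with the fewest genes, then 0.873, 0.903, 0.986 and 1.06, while the share lost went from 44.7 to 29.4%.

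**Figure D4:**
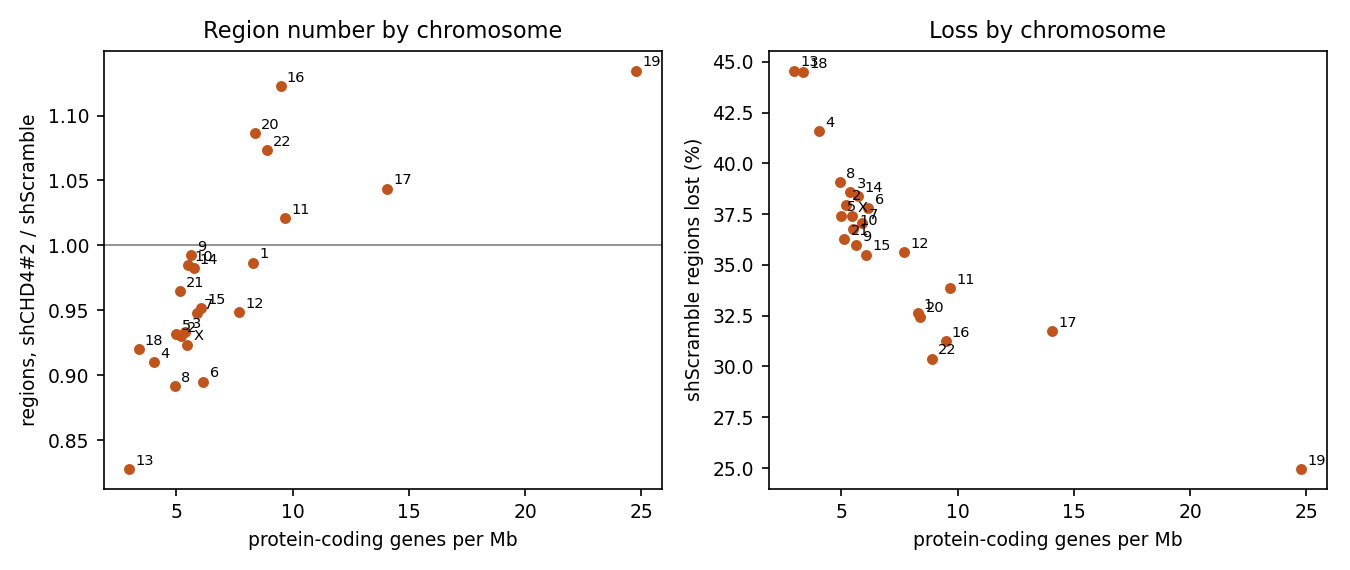
Ratio of region numbers, shCHD4#2 over shScramble (left), and share of shScramble regions lost (%, right), against protein-coding genes per Mb, 1 labelled point per chromosome, on y axes that do not begin at 0. Chromosome 19 has the highest ratio (1.13) and the lowest loss (24.96%), and chromosome 13 the lowest ratio (0.828).

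Per gene, regions were counted in the gene with 5 kb on both sides. A region that was split or merged between the lists changes this number without a gained or lost region. The 5 kb can also take in regions of a neighbouring gene. More regions with shCHD4#2 than with shScramble were found at 6118 of 19970 protein-coding genes (30.6%) and fewer at 6565 (32.9%). With 1 added to both numbers, 1547 genes (7.75%) had at least 2-fold more and 1418 (7.1%) at least 2-fold fewer. The first 20000 rows gave 2704 (13.5%) and 1668 (8.35%). The median log2 ratio over all genes was 0. The balance over all genes itself leaned towards more regions in the shorter lists. In the first 20000 rows 4454 genes (22.3%) had more and 3273 (16.4%) fewer, and at an authors' p of at most 0.05 3328 (16.7%) had more and 2207 (11.1%) fewer. Counts by gene list under these settings are to be read against these shares.

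At the CHD4 locus (chromosome 12, 6570082 to 6607379, minus strand) 6 regions were listed with shScramble and 7 with shCHD4#2. Its 5′ end at 6607379 was covered in both lists, by a shScramble region from 6606901 to 6607570 and a shCHD4#2 region from 6606971 to 6609820. The start given in the promoter table, 6606451, lies inside the gene. It fell between 2 shScramble regions and within the shCHD4#2 region from 6605071 to 6606970. A pair of gained regions lay in the gene, from 6571751 to 6573790 and from 6601261 to 6602300. A region upstream of the gene, from 6610501 to 6612730 with shScramble, ran from 6610721 to 6615400 with shCHD4#2.

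Except CD99, the genes that mark the line had regions in both lists. NR0B1, an orphan receptor activated by the fusion, had 3 regions with shScramble and 4 with shCHD4#2. CCND1, cyclin D1, had 4 and 6. STEAP1, a surface antigen, had 4 and 4, LIPI 5 and 5, PRKCB, a kinase gene, 26 and 25, and BCL11B, a zinc finger factor, 5 and 8. NKX2-2, a homeodomain factor needed by Ewing cells, had 8 and 4. Its 4 shCHD4#2 regions met 6 of the 8 shScramble regions, the widest of them, from 21510951 to 21516320 on chromosome 20, meeting several, and 2 were lost. CD99, the diagnostic surface marker, had none in either list. Whether reads could be placed at CD99 was not tested, so this cannot be read as closed chromatin. The markers of other cell types given here had from 0 to 6 regions, which overlaps the range of the line's own markers. KRT5 and ALB had 0 in both lists, and EPCAM, CDH1 and CD3E 2 and 1 each. PTPRC had 3 and 1, SPI1 2 and 4, PECAM1 3 and 2, APOA1 0 and 2, MYOD1 1 and 1 and MYH3 4 and 3. The endothelial genes CDH5, with 4 and 4, and VWF, with 6 and 6, had at least as many as NR0B1 and STEAP1.

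Gained regions were most numerous at long genes. PTPRN2, a secretory granule protein of endocrine and neuronal cells, had 23 regions with shScramble and 45 with shCHD4#2, 25 of them gained. RBFOX3, the neuronal splicing factor NeuN, had 24 and 41. ZNF423, a zinc finger regulator of neural and fat precursors, had 18 and 32, KLHL29 26 and 38, and ZMIZ1, a transcriptional coregulator, 15 and 26. RXRA, the partner receptor of many nuclear receptors, had 17 and 23 and its listed start was gained. At other genes on the same ranking gains and losses nearly balanced. CAMTA1 had 63 and 71 regions with 24 gained and 20 lost, and GSE1 68 and 73 with 22 gained and 20 lost. This ranking too is by number, and over all shCHD4#2 regions 30.6% were gained.

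Lost regions were most numerous at other long genes. CNTNAP2, a neurexin-family adhesion gene, had 54 regions with shScramble and 34 with shCHD4#2, with 30 lost and 9 gained. TENM2, a teneurin adhesion gene, had 51 and 34, DLG2, a synaptic scaffold, 47 and 36, SDK1 39 and 27, and MAGI2 25 and 14. In this order 26, 24, 19 and 17 were lost. On chromosome 8 ASAP1 had 76 and 52, TRAPPC9 58 and 44, ZFAT 51 and 37, and NSMCE2 43 and 22. There 33, 25, 18 and 24 were lost in the same order. The ranking is by number lost, which also depends on how many regions a gene holds. Over all shScramble regions 35.8% were lost. Narrowed one-to-one regions were most numerous at TENM2 (7 of 20), NCKAP5 (7 of 21), SYN3 (7 of 19) and, with 6 each, at CADPS2 (of 8) and MAD1L1 (of 17), a mitotic checkpoint gene that had 32 regions with shScramble and 39 with shCHD4#2. AKAP13, a kinase anchor protein, had 5 narrowed of 10 and went from 23 to 12 regions. Against these, 18.3% of all one-to-one regions were narrowed.

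Some loci had regions in one list only. CLPTM1L, which neighbours TERT, RNF166, a ubiquitin ligase, and SHC2, an adaptor of receptor kinases, had 0 regions with shScramble and 6 with shCHD4#2. BARHL2, a neural homeobox factor, and NKD1, a WNT antagonist, had 0 and 5. The reverse held at MDGA2, a synaptic adhesion gene, and ZNF385B, with 6 and 0. FGF10, a mesenchymal growth factor, LHCGR, the luteinising hormone receptor, and ROS1, a receptor kinase, had 4 and 0. The listed start was gained at CLPTM1L and RNF166 and uncovered in both lists at SHC2 and BARHL2.

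**Figure D5:**
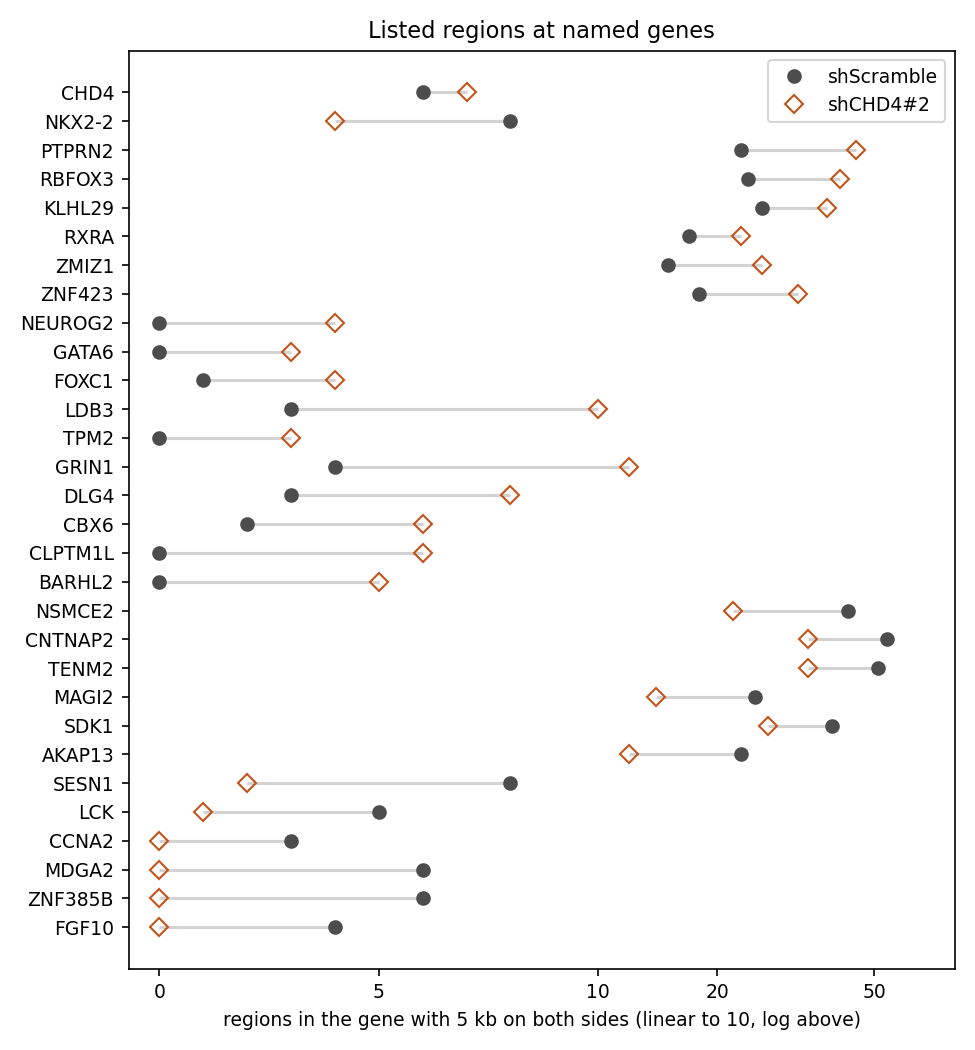
Number of listed regions in the gene with 5 kb on both sides (x axis, linear to 10 and logarithmic above) at 30 of the named genes, filled circles for shScramble and open diamonds for shCHD4#2. The upper genes from PTPRN2 to BARHL2 have more regions with shCHD4#2 (PTPRN2 23 and 45), and the lower ones from NSMCE2 to FGF10 fewer (CNTNAP2 54 and 34).

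Of the 20 gene lists, the 15 endothelial genes had the largest share with at least 2-fold more regions, 26.7% (4 genes). The share over all genes was 7.75%. TIE1, CLDN5 and ROBO4 had 0 and 1 region, which is 2-fold only through the added 1, and EGFL7 2 and 5. In the first 20000 rows 2 endothelial genes had at least 2-fold more and 2 at least 2-fold fewer. Developmental transcription factors followed in the full lists with 22.95%, the largest share among lists of over 20 genes. Of 61 factors, 31 had more and 12 fewer regions, 14 at least 2-fold more and 2 at least 2-fold fewer, with a median log2 ratio of 0.09 against 0 over all genes. NEUROG2 had 0 regions with shScramble and 4 with shCHD4#2, GATA6 0 and 3, OLIG2, an oligodendrocyte factor, 0 and 2, and FOXC1 1 and 4. The 4 NEUROG2 regions were pieces of 330 to 600 bp between 112515321 and 112517440. At GATA6 one region ended at 22169670 and the next began at 22169671. These numbers thus count touching or nearby pieces, not separate places. Of the 41 factors with a promoter window 11 starts were gained and 2 lost. These loci were at mid to low rows: the best region in the start window of GATA6 stood in row 37082, that of NEUROG2 in row 21746 and that of FOXC1 in row 27125. In the first 20000 rows 16 of the 61 had more and 5 fewer, and at an authors' p of at most 0.05 the direction turned, with 4 and 7. PITX1, a hindlimb factor, went the other way, from 4 regions to 1, and ISL1, a motor neuron and heart factor, from 3 to 1.

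Muscle genes had more regions at 17 of 42 and fewer at 8, with a median of 0. LDB3, a Z-disc protein, had 3 regions with shScramble and 10 with shCHD4#2, TPM2, a tropomyosin, 0 and 3, and TNNC2, fast troponin C, 1 and 4. Among the first 20000 rows 10 of the 42 had more and 10 fewer, and at p of at most 0.05 5 and 5. Neuronal and synaptic genes had 12 more and 15 fewer of 40, with a median of 0. In the first 20000 rows 12 of these had more and 8 fewer, and at p of at most 0.05 13 and 4. Over all genes more was also the commoner outcome there, 22.3% against 16.4% and 16.7% against 11.1%. GRIN1, the obligatory NMDA receptor subunit, had 4 and 12, and DLG4, the scaffold PSD-95, 3 and 8.

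Chromatin regulators had more regions at several subunits. Of 15 NuRD genes 10 had more and 4 fewer, with a median log2 ratio of 0.42. CHD5, the neuronal paralogue of CHD4, had 10 regions with shScramble and 16 with shCHD4#2, MBD3, which links the remodeller to the deacetylases, 3 and 5, and HDAC2, a deacetylase, 4 and 2. Only CDK2AP1, with 0 and 1, reached 2-fold. Of the 15, 5 had more and 4 fewer in the first 20000 rows, and 5 and 2 at p of at most 0.05. Of 26 Polycomb genes 13 had more and 7 fewer, with a median of 0.13, and 7 listed starts were gained and 1 lost. BMI1, a PRC1 subunit, had 1 and 5, CBX6 2 and 6, and EED, a PRC2 subunit, 4 and 2. At BMI1 4 regions were gained in the padded locus, but only 1 gained region had BMI1 as its nearest gene. The listed start of BMI1 was covered in neither list. This list had 13 more and 3 fewer in the first 20000 rows, and 5 and 6 at p of at most 0.05. BAF genes, of the other large remodeller, had 9 more and 11 fewer of 25, 3 and 6 in the first 20000 rows, and 7 and 2 at p of at most 0.05. ARID2 had 6 and 2 with only 1 lost, and SMARCB1 7 and 3 with 4 lost. SMARCA4, an ATPase of the complex, had 3 and 6 with 5 gained and 2 lost.

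DNA damage response genes had the lowest median of the lists, -0.32, with 5 of 25 more and 14 fewer. BRCA2, a homologous recombination gene, had 4 regions with shScramble, only 1 of them lost, and 1 with shCHD4#2. CHEK2, a checkpoint kinase, had 4 and 2, and MRE11, a nuclease, 1 and 4. Of the 19 with a start window, 17 were covered in both lists. The lower number was not seen in the shorter lists, with 7 more and 5 fewer in the first 20000 rows, near the balance of all genes, and 6 and 2 at p of at most 0.05. Of 20 p53 targets 6 had more and 9 fewer, with a median of 0. SESN1, a stress-induced regulator of mTORC1, had 8 and 2, and its relative SESN2 4 and 1. The region over the SESN1 and CEP57L1 starts, from 109094661 to 109097420 on chromosome 6, stood in row 2578 of the shScramble list and had no counterpart within 20860 bp. Of the 20, 12 had more and 3 fewer in the first 20000 rows, and 5 and 4 at p of at most 0.05. Cell cycle genes were even in the full lists, 8 more and 7 fewer of 30, but had 12 more and 3 fewer in the first 20000 rows and 11 and 3 at p of at most 0.05. CCNA2 had 3 regions with shScramble and 0 with shCHD4#2. E2F2, an E2F activator, had 3 and 6, but only 1 region was gained and its listed start was covered with shScramble alone.

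Apoptosis genes had more regions at 17 of 31 and fewer at 8, with a median of 0.26. BIRC5, the survivin gene, had 0 and 2, and BAD 4 and 8 with 3 gained. BBC3, which encodes PUMA, had 2 and 4 with 1 gained, and the caspase gene CASP6 4 and 2. The first 20000 rows gave 13 more and 5 fewer, and p of at most 0.05 gave 10 and 4. The median was 0 for genes activated by the fusion (13 more and 10 fewer of 30) and for mesenchymal genes it represses (11 and 14 of 30). The first 20000 rows gave 10 and 7 for the former and 5 and 8 for the latter, and p of at most 0.05 gave 3 and 6, and 4 and 4. CAV1, a caveolae protein, had 4 and 8, and COL1A1, the collagen I chain, 7 and 3. Blood genes had 5 more and 10 fewer of 25, among them the T cell kinase LCK with 5 and 1. Endothelial genes had 6 and 4 of 15, epithelial 3 and 6 of 15, liver and gut 6 and 5 of 20, germline 4 and 6 of 20, interferon 7 and 9 of 25, ribosomal protein 17 and 18 of 40 and olfactory receptor genes 4 and 2 of 20, all with a median of 0. In the first 20000 rows ribosomal protein genes had 13 more and 5 fewer, and at p of at most 0.05 8 and 4. Blood, endothelial, epithelial, liver and gut, germline, interferon and olfactory receptor genes had at most 5 more and at most 4 fewer in either setting.

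The best-ranked single regions give the sharpest cases. The gained region in row 461 of the shCHD4#2 list, from 33317121 to 33318980 on chromosome 6, covered the start of ZBTB22 and an end of DAXX, a histone H3.3 chaperone. The nearest shScramble region was 680 bp away. A gained region in row 441 lay in VAV1, a guanine exchange factor of blood cells, 280 bp from a shScramble region, and that in row 572 lay 2725 bp from UTS2R. That in row 61 lay near PPIAL4F, a member of a family of near-identical copies, where the placement of reads is uncertain. The best lost regions stood in rows 498 to 1108 of the shScramble list, at UFD1, TSPAN9, EEFSEC, SLC48A1 and near INSIG1. At 4 of these 5 a shCHD4#2 region lay within 520 bp, and at UFD1, a gene of protein degradation at the endoplasmic reticulum, it lay 20 bp away. At EEFSEC, the selenocysteine elongation factor, the nearest was 12220 bp away. Among the regions most narrowed within the first 20000 rows of both lists, one in STEAP3, a ferrireductase gene, went from 2150 to 400 bp, one near KIF21A from 3530 to 700 bp, and one in EYS from 2920 to 600 bp. The other 2, at SPDYE12 and NCF1 on chromosome 7, lie in families of near-identical copies.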

How the data were processed

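ATAC-seq regions were compared between shCHD4#2 and shScramble SK-N-MC cells, and groups follow the sample labels. The submitters' processing notes name BWA, deepTools 3.2.1, SAMtools 1.9, FastQC 0.11.7 and Trimmomatic 0.36, with GRCh38 and a Drosophila build. Not given in the sources used here are the peak caller, its settings, any shift for the Tn5 cut and any use of the spike-in. Each deposited region has 2 scores from the authors with no stated unit, and the authors' p-value and q-value. The lists are sorted by that p-value, and these values only ranked or filtered regions within a list. Only 1369 shCHD4#2 and 1313 shScramble regions had a q-value of at most 0.05. Read depth per sample is unknown, and a deeper library would list more weak regions.

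A shared stretch of at least 1 bp made an overlap. Genes were 19970 protein-coding genes of RefSeq for GRCh38.p14. A listed start, strand and 300-base window were matched for 15811 of them, and statements on gene ends use all 19970. A gene was counted with 5 kb on both sides, and its log2 ratio has 1 added to both numbers. Nearest genes lay within 100 kb. Bins of 5 Mb needed 20 shScramble regions. Named genes are CHD4, cell markers, at most 4 genes a list (largest ratio), the 10 genes nearest most gained, most lost and most narrowed regions, the 10 largest loci listed in one group only, and the 5 best regions of each kind; some of these are not reported here, and other list members (PITX1, ISL1) were named after their values were seen. Members and lists were chosen with earlier results of these data known. The overlap code was tested on simulated regions. Python 3.11.15, numpy 2.4.6, pandas 2.3.3, scipy 1.17.1 and matplotlib 3.10.9 were used. The alternatives were the first 20000 rows, authors' p filters, an overlap of 50% of both regions, no filter, a 500 bp gene-end window and a 50 kb locus. Counting regions within 1 kb as shared and merging touching regions were chosen after seeing the data.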

Additional observations from a re-analysis of the deposited data

How the results depend on the processing

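Over 9 alternatives, each run on the results it bears on, the share at a gene end was higher for gained than for lost regions in 8 of 8 that bear on it, and the median width ratio was below 1 in 5 of 5 that bear on it. The share of shScramble regions lost and of shCHD4#2 regions gained, 35.8% and 30.6%, was 39.1% and 39.3% in the first 20000 rows, 38.4% and 39.5% at an authors' p of at most 0.05 in both lists, and 4.18% and 6.14% with presence at that p and absence at any p. It was 60.5% and 59.3% when 50% of both regions had to overlap, 24.6% and 20.6% when regions within 1 kb counted as shared, and 34.5% and 29.8% with touching regions merged. The median width ratio, 0.756, was 0.811 in the first 20000 rows, 0.853 at p of at most 0.05, 0.834 under the 50% overlap and 0.761 without the filter. The gene-end share of gained and lost regions, 18.4% and 9.12%, was 35.6% and 14.3% in the first 20000 rows, 42.7% and 16.7% at p of at most 0.05, and 33.0% and 25.7% with absence at any p. It was 20.1% and 16.6% under the 50% overlap, 13.9% and 6.44% with a 500 bp window, and 14.1% and 5.33% with regions within 1 kb shared. Genes with at least 2-fold more regions, 1547, numbered 2704 in the first 20000 rows, 2458 at p of at most 0.05 and 796 with 50 kb loci. Genes with at least 2-fold fewer, 1418, stayed within 1.5 times of that number, from 1053 to 1668. The causes of these shifts were not tested beyond the smaller lists and windows themselves. No paired analysis was possible because each group has 1 list, and no replicate could be left out for the same reason. Without read counts, a region absent from a list may lie under its calling threshold.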

Other observations

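Non-coding genes had a smaller surplus of starts gained. Of 11383 long non-coding RNA starts in the promoter table, 2079 were covered in both lists, 780 (6.85%, Wilson 6.40 to 7.33%) with shCHD4#2 alone and 606 (5.32%, 4.93 to 5.75%) with shScramble alone. The median GC content was 63.7% for those gained and 53.7% for those lost. For protein-coding genes the shares were 12.6% and 5.6%.

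Of 1558 microRNA hairpins, 139 were covered in both lists, 78 (5.01%) with shCHD4#2 alone and 92 (5.91%, 4.84 to 7.19%) with shScramble alone, and the intervals overlap. A hairpin is short, so many of these lay just beyond the edge of a region of the other list. MIRLET7I, a let-7 gene, was covered in row 11123 of the shCHD4#2 list with the nearest shScramble region 215 bp away. MIR21, which is abundant in many tumours, was covered in row 14571 of the shScramble list with the nearest shCHD4#2 region 2995 bp away. MIR184 was covered in row 15563 of the shCHD4#2 list, 2089 bp from a shScramble region. These 3 were chosen after their values were seen. Their mature forms from RefSeq are printed 5′ to 3′ with the seed, bases 2 to 8, in capitals, and no seed is shared among them.
hsa-let-7i-5p: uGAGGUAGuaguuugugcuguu
hsa-miR-21-5p: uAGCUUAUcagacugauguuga
hsa-miR-184: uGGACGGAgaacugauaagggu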
